A study of Mus musculus with 15 samples.

Results

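The histone deacetylases described here are 10 genes chosen by symbol, Hdac1 to Hdac9 and Hdac11, out of 26145 gene rows measured by single-cell RNA sequencing of the mouse prefrontal cortex (PFC). They fall into class I (Hdac1, Hdac2, Hdac3 and Hdac8), class IIa (Hdac4, Hdac5, Hdac7 and Hdac9), class IIb (Hdac6) and class IV (Hdac11). Histone deacetylases remove acetyl groups from lysines of histones and other proteins, which generally lowers transcription of the chromatin they act on. Class I enzymes are mostly nuclear and work as the catalytic subunits of corepressor complexes. Class IIa proteins have little catalytic activity of their own, shuttle between nucleus and cytoplasm when phosphorylated by calcium-dependent and related kinases, and bind MEF2 transcription factors. Hdac6 is a cytoplasmic enzyme that deacetylates tubulin, and the family has long been studied in memory and in drug responses of neurons.

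All animals were male C57BL/6N mice. The adult (P60, 8 to 10 weeks) mice self-administered saline or cocaine intravenously and were collected at the maintenance phase, 48 h after withdrawal or 15 days after withdrawal, with 2 libraries per treatment and time point and the tissue of 2 mice pooled in each library. A further 3 libraries came from P21 (3 weeks) mice that took no part in self-administration, so age and this history differ together. The methods name 4 mice at P21, too few for 3 separate pools of 2, and how they were divided over the 3 libraries is not given in the sources used here. The 3 P21 libraries may therefore not be independent, and p-values measure the spread between libraries. One tissue field of the labels reads NAc, while titles, source names and the dissection protocol give the prefrontal cortex.

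The 15 libraries held 8375172 to 42892922 UMIs (unique molecular identifiers, 1 per captured transcript molecule) in the retained cells, which numbered 24822 at P60 and 10538 at P21. The deposited annotation places each cell in 1 of 8 classes and in a finer cluster, and in the P60 saline libraries the fixed markers of each of the 8 classes were highest in the class so named. The endothelial class also held the markers of pericytes and vascular smooth muscle (median sum 7744 CPM, UMIs per 1000000 UMIs of the class). At P21 the class and the cluster of 459 cells named different types, against 33 cells at P60. Of the P21 cells in the oligodendrocyte precursor (OPC) class, 29 of 51 sat in excitatory clusters, and the same was true of 64 of 329 microglia, 52 of 405 astrocytes and 69 of 2047 endothelial cells. In the P21 OPC class the 5 excitatory neuron markers, all detected, summed to 3328 to 3434 CPM, against 202 to 1762 CPM in the P60 saline libraries. Members called with age in astrocytes, oligodendrocytes or endothelial cells are therefore given with and without the cells whose class and cluster differ, while the lists of partner genes were tested with all cells only. Excitatory neurons were little touched, with 30 of 5688 such cells.

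All 10 members were detected. Hdac11 and Hdac3 gave the most molecules at P60 (22633 and 22332 UMIs), and Hdac8 the fewest (3429 UMIs). Hdac4 is split over 2 adjacent gene rows on chromosome 1 (mm9, minus strand), ENSMUSG00000026313 at chr1:93829334-94044970 and ENSMUSG00000073617 at chr1:93825362-93827753, which were added together. The annotation places genes on the opposite strand within Hdac4, Hdac7, Hdac8 and Hdac11, and the sources used here do not say whether counting used strand, so reads of those partners cannot be told apart from theirs.

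Levels are given as CPM of the class in each library, averaged over the P60 libraries with at least 10 cells of that class. They describe shares of a class's transcripts. Excitatory neurons hold more UMIs per cell than glia, so molecules per cell can rank classes differently, and the main changes of order are given with each gene. Clustering used these same cells, and no test is attached to differences between classes.

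Among the class I genes, Hdac1 took a larger share of the transcripts in non-neuronal cells than in neurons. Its level was 144.6 ± 33.5 CPM in newly formed oligodendrocytes (SD, n = 11 libraries), 121.4 ± 14.1 in endothelial cells (n = 12) and 110.5 ± 29.0 in OPCs (n = 11), 3 neighbours in the order that did not differ beyond their spread. Oligodendrocytes, microglia and astrocytes followed at 81.1, 77.3 and 71.3 CPM, again within the spread of each other. Inhibitory neurons (37.7 ± 10.9 CPM) and excitatory neurons (30.1 ± 2.67 CPM) were lowest, and every one of 11 libraries had more Hdac1 in astrocytes than in inhibitory neurons. Counted per cell the order differed, with 40.6 Hdac1 UMIs per 100 excitatory neurons, below newly formed oligodendrocytes (72.9) and endothelial cells (53.2) but above OPCs (37.4), oligodendrocytes (29.3), astrocytes (25.2) and microglia (21).

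Hdac2, the close paralog of Hdac1, was instead highest in neurons. It was at 49.1 ± 7.51 CPM in excitatory neurons (n = 12) and 45.0 ± 11 CPM in inhibitory neurons (n = 12), and at 13.4 ± 3.25 CPM in oligodendrocytes. Newly formed oligodendrocytes (41.0 CPM) and OPCs (35.4 CPM) lay within the spread of the neurons. The first break larger than the spread lay between endothelial cells (34.5 ± 7.54 CPM) and astrocytes (21.9 ± 11.3 CPM), with 10 of 11 libraries higher in endothelial cells. Hdac3, the catalytic subunit of the NCoR and SMRT complexes, was the most even of the abundant members. It lay between 93.6 and 108.4 CPM in astrocytes, excitatory neurons, inhibitory neurons and OPCs and fell to 41.8 ± 13.0 CPM in microglia, with no step between neighbours beyond their spread.

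Hdac8 stood out in astrocytes. Its level there was 75.9 ± 13.2 CPM (n = 11, lowest 61.5 and highest 107.0), against 39.8 ± 11.5 CPM in OPCs and 20.7 ± 3.94 CPM in oligodendrocytes. All 11 libraries had more Hdac8 in astrocytes than in OPCs, and all 11 had more in OPCs than in oligodendrocytes. Excitatory neurons held 12.5 ± 1.41 CPM, but per 100 cells they gave 16.3 Hdac8 UMIs, below astrocytes (25.8) and above OPCs (12.3) and oligodendrocytes (7.73).

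The class IIa genes differed in where they were highest. Hdac7 was at 122.1 ± 11.7 CPM in endothelial cells (n = 12, 105.6 to 142.8), where it is known to keep the vessel wall intact during development. Its next class, astrocytes, was at 33.0 ± 6.78 CPM with a highest library of 43.1 CPM, so the 2 ranges did not meet. Per 100 cells excitatory neurons (20.2 Hdac7 UMIs) came next after endothelial cells (54.2), ahead of astrocytes (12.8). Hdac9 was nearly restricted to neurons, at 41.8 ± 15.6 CPM in inhibitory and 19.0 ± 2.72 CPM in excitatory neurons, with 11 of 12 libraries higher in inhibitory neurons. Outside neurons its highest mean was 6.80 ± 6.76 CPM, in OPCs.

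Hdac4 was highest in astrocytes (39.2 ± 13.2 CPM) and then excitatory neurons (25.1 ± 2.96 CPM), with 10 of 11 libraries in that order. Per 100 cells the order turned, with 32.7 Hdac4 UMIs in excitatory neurons and 14.6 in astrocytes. Hdac5 was shared by inhibitory neurons (45.7 ± 13.7 CPM), endothelial cells (43.5 ± 7.05 CPM) and oligodendrocytes (43.3 ± 13.4 CPM), which did not differ beyond their spread, while excitatory neurons held 17.4 ± 2.31 CPM. Per 100 cells excitatory neurons gave 23.9 Hdac5 UMIs, after inhibitory neurons (33.8) and ahead of endothelial cells (19.0) and oligodendrocytes (16.9). Hdac6, the tubulin deacetylase, was at 30 ± 13.1 CPM in inhibitory neurons and 26.1 ± 6.54 CPM in OPCs. It was at 16.1 ± 1.40 CPM in excitatory neurons, below OPCs in 11 of 11 libraries, and at 4.57 ± 3.90 CPM in oligodendrocytes. Per 100 cells excitatory neurons gave the most Hdac6 UMIs, 21, close to inhibitory neurons (19.7) and above OPCs (8.24).

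Hdac11, the single class IV gene, reached the highest level of any member in any class. It was at 209.5 ± 43.8 CPM in oligodendrocytes (n = 12, 141.7 to 263.7), 155.8 ± 21.8 CPM in inhibitory neurons (134.9 to 209.8) and 102.9 ± 6.18 CPM in excitatory neurons (94.4 to 114.5). Each step held in 12 of 12 libraries, and OPCs came next at 40.9 ± 14.3 CPM, with all 11 libraries below excitatory neurons. Counted per cell the order differed. Excitatory neurons gave 134.0 Hdac11 UMIs per 100 cells, inhibitory neurons 120.3 and oligodendrocytes 72.2. Hdac3 likewise gave 132.3 UMIs per 100 excitatory neurons and 36.2 per 100 OPCs, although their CPM did not differ beyond the spread. The leading class by CPM of each of the 10 genes was unchanged with the saline libraries alone or with the mean of per-cell CPM.

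**Figure D1:**
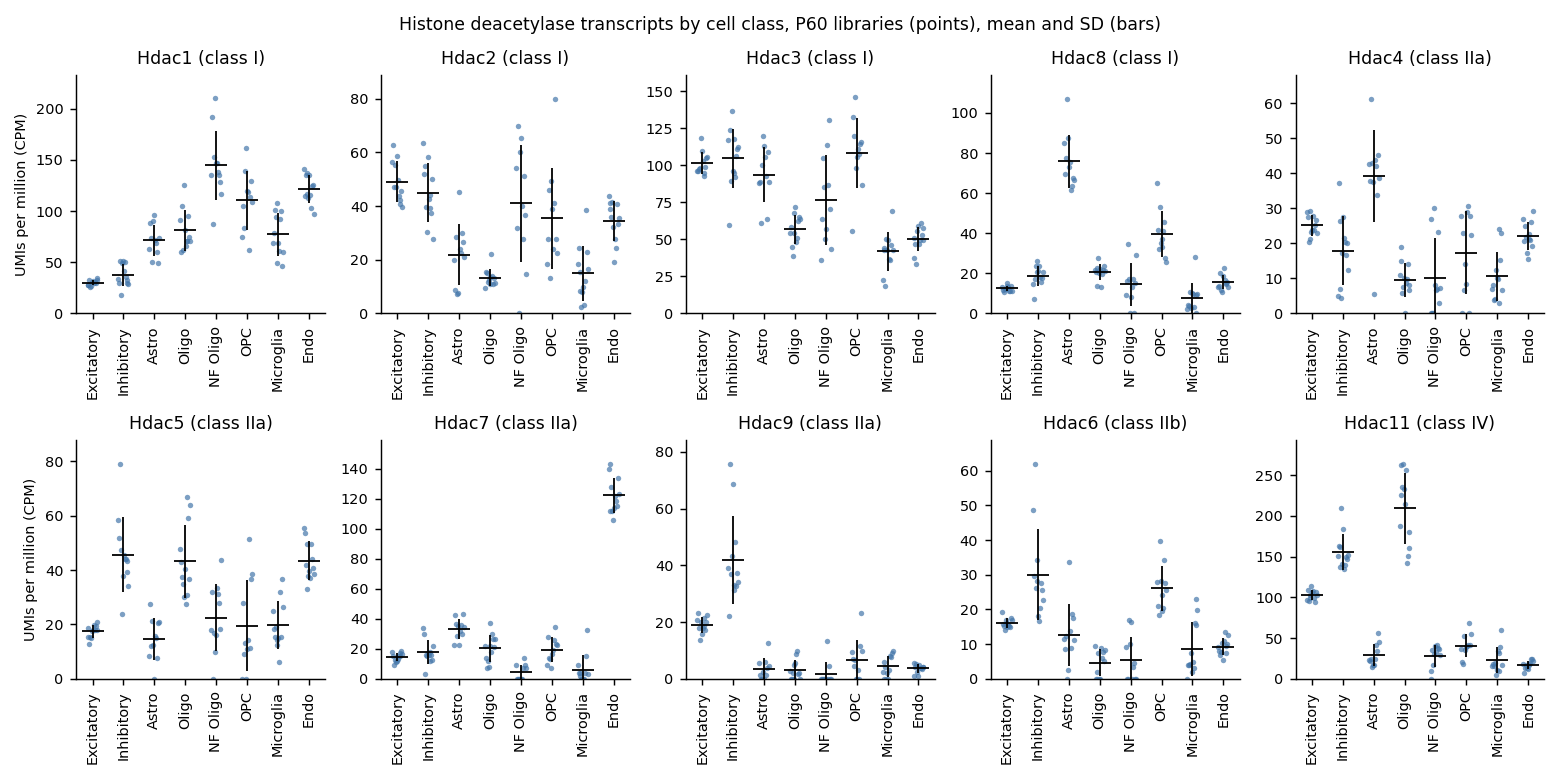
CPM of each histone deacetylase (y axis) in 8 cell classes (x axis) at P60. Points are libraries with at least 10 cells of the class, and black bars give the mean and SD. Hdac7 in endothelial cells, Hdac8 in astrocytes and Hdac11 in oligodendrocytes and neurons stand above the other classes.

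The 10 members summed took 515 CPM of inhibitory neurons, 462 CPM of oligodendrocytes, 439 CPM of endothelial cells and 424 CPM of OPCs. Astrocytes followed at 395 CPM, excitatory neurons at 388 CPM, newly formed oligodendrocytes at 349 CPM and microglia, the lowest class, at 214 CPM. These are shares of a class's transcripts. Counted per cell the order can differ, as excitatory neurons hold more UMIs than glia, and no sum per cell is given here.

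Across the 26 excitatory clusters with at least 100 P60 cells, Hdac9 varied most. It was at 2.80 ± 2.13 CPM in Exc_19 and 36.9 ± 5.06 CPM in Exc_15 (n = 8), a 12.3-fold ratio of the pooled levels, and the library ranges did not meet. The ends of each range are the clusters with the lowest and highest pooled level. Hdac1 ran from 15.2 ± 5.99 CPM in Exc_13 to 45.2 ± 9.79 CPM in Exc_17 (n = 9), and Hdac2 from 28.8 ± 12.9 CPM in Exc_17 to 76.5 ± 13.8 CPM in Exc_4 (n = 12), again with ranges apart. Exc_17 was thus the highest cluster for Hdac1 and the lowest for Hdac2. For the other 7 genes the ranges of the extreme clusters overlapped. Hdac3 was the most even with a 1.38-fold ratio, followed by Hdac11 with 1.54-fold.

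**Figure D2:**
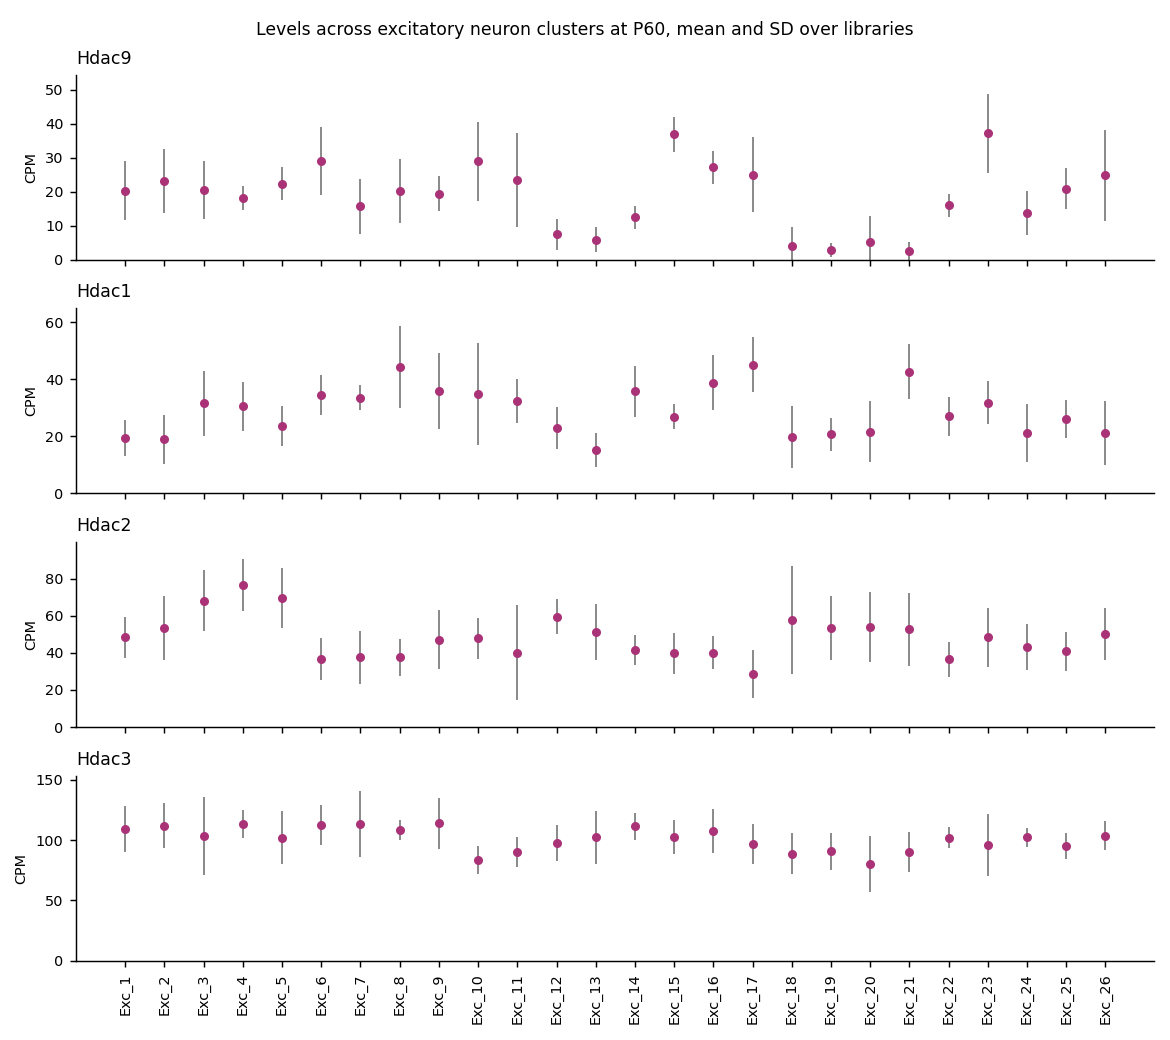
Mean CPM and SD over libraries (y axis) of 4 members in each excitatory cluster at P60 (x axis). Hdac9 spans from below 3 CPM in Exc_19 to 36.9 CPM in Exc_15, while Hdac3 varies 1.38-fold.

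Inhibitory clusters differed for Hdac9 too. The pooled level was 46.6 CPM in Inhib_7 and 8.64 CPM in Inhib_2, with library means of 42.2 ± 18.1 (n = 9) and 9.61 ± 6.03 CPM (n = 6). Hdac7 was present throughout the endothelial clusters and reached 160.5 ± 40.4 CPM in Endo_8 (n = 8). Hdac11 peaked in Oligo_2 (286.3 ± 48.8 CPM, n = 5) and Oligo_4 (278.4 ± 56.3 CPM, n = 8).

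The genes whose log2(CPM + 1) followed each member most closely over 68 clusters were named by a fixed rule, as a description, since clusters share libraries, depth and cell class. For Hdac11 they were Elavl3, Mtap1a and Ank3 (Pearson r = 0.95, 0.93 and 0.93), for Hdac1 Sept10, Krcc1 and Rhoa (0.93 each), and for Hdac7 Maoa, Tfrc and Ldlrad3 (0.92, 0.90 and 0.89). For Hdac3 they were Ndufv2, Arl3 and Acp1 (0.91, 0.91 and 0.90), for Hdac2 Atrx, Usp34 and Ylpm1 (0.88, 0.88 and 0.87), and for Hdac8 Mfn1, Ift27 and Asrgl1 (0.88, 0.87 and 0.86). Hdac6 went with Tsfm, Zmym1 and Snrpd1 (0.83, 0.83 and 0.82), Hdac9 with Cpne6, Rab3c and Fhod3 (0.83, 0.82 and 0.82), Hdac5 with Unc5b, Dennd5a and Mob3b (0.78, 0.77 and 0.76), and Hdac4 with Asap2 and Cry2 (0.78 and 0.75). Between members, r over the same clusters ran from -0.64 for Hdac1 with Hdac3 to 0.70 for Hdac3 with Hdac6.

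The comparison of P60 saline with P21 asked how the genes changed over adolescence. The sources used here do not say whether P21 and P60 libraries were prepared together, and a difference in preparation cannot be told apart from age. A gene was called where edgeR's quasi-likelihood test gave a Benjamini-Hochberg adjusted p below 0.05 over all genes of the fit together with a change above 1.5-fold. In excitatory neurons all 10 members were tested, 2 were called and 7 passed the adjusted p without the fold. All genes tested gave 18.1% called there, and 38.8% without the fold.

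The 4 members with the lowest adjusted p in excitatory neurons are shown first by their promoters, from 250 bases before to 50 after the transcription start. Hdac2, Hdac4 and Hdac5 were lower at P60 and Hdac8 was higher. The sequences are RefSeq's (GRCm38.p6), from the table of promoters, which matched 8 of the 10 members, and the capitals mark GC boxes (GGGCGG or CCGCCC), the core of Sp1-type binding sites.
Hdac2 (chr10:36974294-36974593, plus strand): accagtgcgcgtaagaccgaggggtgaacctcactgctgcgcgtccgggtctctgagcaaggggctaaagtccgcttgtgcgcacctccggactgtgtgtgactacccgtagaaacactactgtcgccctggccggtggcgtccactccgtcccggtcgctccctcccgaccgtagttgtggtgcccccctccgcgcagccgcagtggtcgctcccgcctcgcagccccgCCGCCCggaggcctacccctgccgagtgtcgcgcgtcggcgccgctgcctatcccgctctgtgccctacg
Hdac4 (chr1:92180292-92180591, minus strand): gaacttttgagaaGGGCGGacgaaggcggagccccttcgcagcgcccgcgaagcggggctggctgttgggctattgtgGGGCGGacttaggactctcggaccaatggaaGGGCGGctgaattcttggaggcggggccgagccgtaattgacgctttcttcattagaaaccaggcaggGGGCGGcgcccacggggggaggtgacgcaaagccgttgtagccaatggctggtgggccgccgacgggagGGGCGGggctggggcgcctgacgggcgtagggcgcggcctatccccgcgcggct
Hdac5 (chr11:102230123-102230422, minus strand): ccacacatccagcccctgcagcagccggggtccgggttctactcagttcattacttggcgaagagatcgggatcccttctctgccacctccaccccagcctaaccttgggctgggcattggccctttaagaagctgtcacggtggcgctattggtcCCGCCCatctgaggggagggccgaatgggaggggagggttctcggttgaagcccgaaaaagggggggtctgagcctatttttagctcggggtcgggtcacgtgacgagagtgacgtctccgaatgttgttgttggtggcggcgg
Hdac8 (chrX:102505109-102505408, minus strand): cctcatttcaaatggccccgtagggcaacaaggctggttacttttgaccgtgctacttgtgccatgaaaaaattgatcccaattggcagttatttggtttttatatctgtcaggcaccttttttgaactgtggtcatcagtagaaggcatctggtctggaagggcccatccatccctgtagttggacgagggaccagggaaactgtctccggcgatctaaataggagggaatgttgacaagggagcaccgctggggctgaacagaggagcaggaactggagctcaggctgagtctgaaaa
A GC box on either strand was present in 35.7% of the 32851 promoters of the table. The Hdac4 window held 5 of them and those of Hdac2 and Hdac5 held 1 each, while the letters did not occur in the Hdac8 window. The CCAAT motif (CCAAT or ATTGG), found in 37.4% of promoters, occurred 2 times in Hdac4 and Hdac5 and not in Hdac2. In Hdac8 its 2 matches overlapped in 1 stretch, ccaattgg, which reads the same on both strands. The cAMP response element TGACGTCA, found in 1.79%, occurred in none of the 4. Their GC content was 69.7% for Hdac2, 68.0% for Hdac4, 60.7% for Hdac5 and 49.7% for Hdac8, against a median of 52.7% over all promoters. The windows of the other members that passed the adjusted p did not follow one pattern. Hdac9, lower at P60, had 0 GC boxes in either of its 2 windows and a GC content of 44.0% and 45.3%. Hdac6, also lower, had 5 GC boxes (62.0% GC), and of the 4 windows of Hdac7, which was higher, 1 held a GC box (73.7% GC).

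Hdac8, an X-linked class I enzyme that also deacetylates cohesin, was the clearest riser in excitatory neurons. Its 3 P21 libraries were at 9.21, 4.48 and 5.39 CPM, and the 6 P60 saline libraries lay between 10.8 and 13.9 CPM with a median of 12.0 CPM. The groups did not overlap, although the first P21 library stood nearer to the adults than the others. That library was the highest of the 3 in every class where Hdac7 or Hdac8 was called. It also had the most UMIs per cell (median 8369 against 6359 and 5718), and the part of depth was not tested. The log2 difference (P60 minus P21) was 0.95 ± 0.19 (SE; adjusted p = 0.0021), and it stayed called when any single library was left out (0.76 to 1.37). Hdac8 was also higher in inhibitory neurons (10.9 ± 2.80 against 18.4 ± 6.21 CPM; log2 0.82 ± 0.27, adjusted p = 0.042), where the ranges overlapped and 6 of the 9 single-library omissions lost the call (adjusted p up to 0.15), as did DESeq2 (adjusted p = 0.087). The mitochondrial share in inhibitory neurons was 3.42 to 4.08% at P21 and 2.52 to 3.08% at P60. The 4 inhibitory neuron markers in the files, all detected, summed there to 2388 to 2791 CPM at P21 and 3095 to 4350 CPM at P60. The part of both in the result was not tested.

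Hdac7 passed narrowly in excitatory neurons. The P21 libraries were at 12.8, 6.59 and 8.08 CPM and the P60 saline libraries at 9.18 to 18.4 CPM, so the groups overlapped. The log2 difference was 0.63 ± 0.23 (adjusted p = 0.044), and 6 of 9 single-library omissions lost the call (0.45 without the second P21 library, adjusted p = 0.16).

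Among the class I and IIa members that were lower at P60 in excitatory neurons, the difference was smaller than 1.5-fold in each, so none was called. Hdac5, a class IIa member studied in cocaine reward and in axon regeneration, was at 25.7, 25.6 and 25.2 CPM at P21 and at 12.8 to 20.8 CPM in the P60 saline libraries, all 6 below P21 (log2 -0.52 ± 0.11, adjusted p = 0.0034). Hdac4, needed for synaptic gene repression and memory, was at 34.1, 32.1 and 33.8 CPM at P21 and at 20.4 to 27.5 CPM at P60, again without overlap (-0.45 ± 0.09, adjusted p = 0.0023). With its 2 gene rows tested apart, ENSMUSG00000073617 gave -0.80 ± 0.14 (adjusted p = 0.00089, called) and ENSMUSG00000026313 gave -0.24 ± 0.10 (adjusted p = 0.078).

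Hdac2, a negative regulator of memory and synapse number, was at 59.8, 71.7 and 76.7 CPM at P21 and at 39.8 to 62.7 CPM at P60, where 1 saline library reached into the P21 range (log2 -0.48 ± 0.12, adjusted p = 0.0081). Hdac6 (20.9 ± 2.20 against 16.4 ± 0.821 CPM; -0.30 ± 0.09, adjusted p = 0.022) and Hdac9 (25.4 ± 1.92 against 20.2 ± 2.20 CPM; -0.30 ± 0.10, adjusted p = 0.031) were lower too, with no overlap. Leaving out single libraries lost the adjusted p of Hdac9 in 4 of 9 cases (up to 0.13), of Hdac6 in 2 of 9 (up to 0.12) and of Hdac2 in 1 of 9 (0.051). With no filter on low counts neither Hdac6 nor Hdac9 passed the adjusted p. Hdac1 (0.23 ± 0.10, adjusted p = 0.083), Hdac11 (0.16 ± 0.07, adjusted p = 0.091) and Hdac3 (-0.05 ± 0.09, adjusted p = 0.68) did not pass in edgeR's quasi-likelihood test. The median over the 10 members was -0.17, against -0.01 over the 13103 genes tested.

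Beside these excitatory values, median UMIs per cell were 7285 to 11339 in the P21 libraries and 11898 to 14834 in the P60 saline libraries, and the mitochondrial share was 3.05 to 3.67% against 2.16 to 2.52%. The 11 dissociation-induced genes, all detected, summed to 848 to 870 CPM at P21 and to 379 to 600 CPM at P60. The 5 astrocyte markers, all detected, summed to 37.4 to 59.5 CPM at P21 and 66.2 to 147.6 CPM at P60 in excitatory neurons, and the 5 mature oligodendrocyte markers, all detected, to 178 to 332 CPM and 46.5 to 132 CPM, both without overlap. The 5 excitatory neuron markers, all detected, summed to 4571 to 4839 CPM at P21 and 5445 to 6838 CPM at P60, also without overlap. The part of these in the result was not tested.

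**Figure D3:**
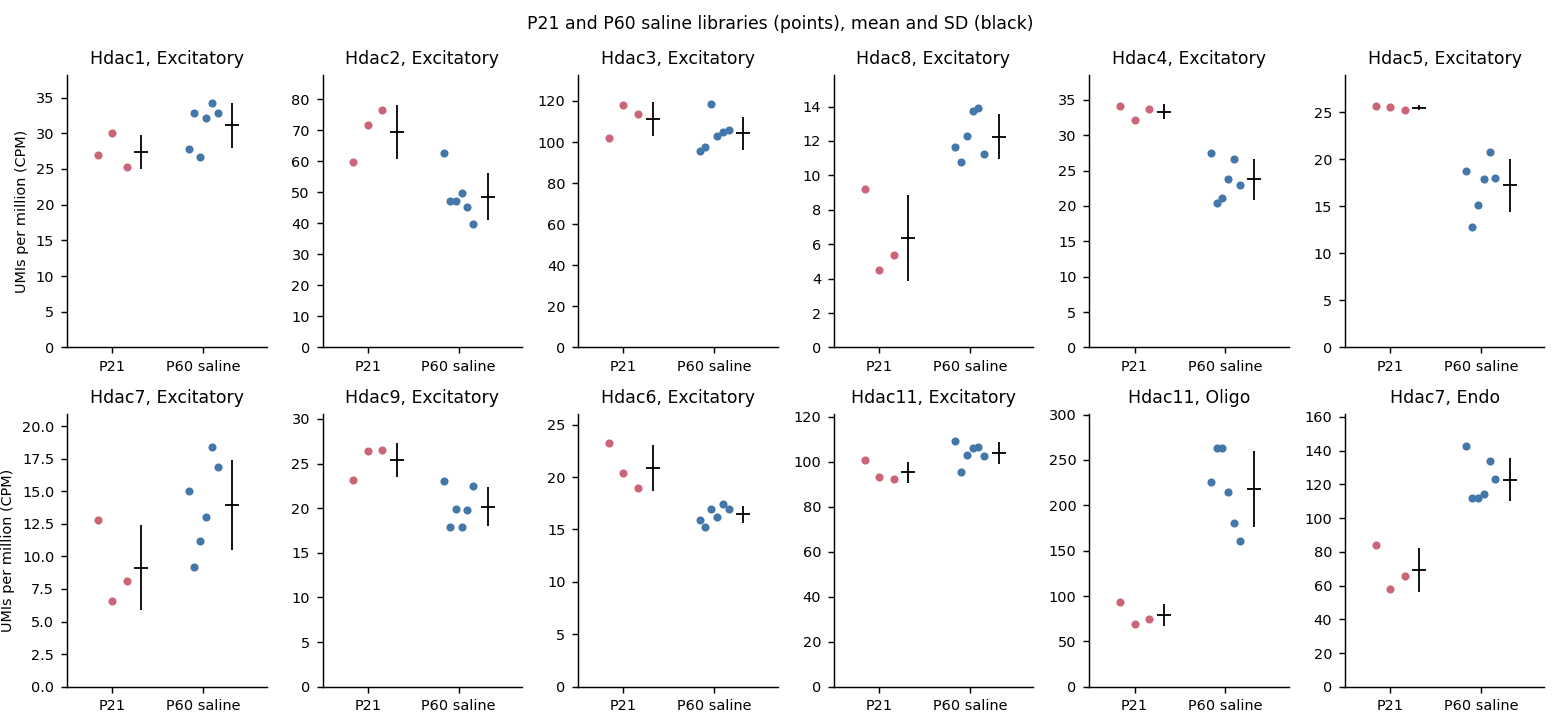
CPM (y axis) in P21 (red) and P60 saline (blue) libraries, with mean and SD in black, for the 10 members in excitatory neurons, Hdac11 in oligodendrocytes and Hdac7 in endothelial cells. Hdac8, Hdac11 in oligodendrocytes and Hdac7 in endothelial cells are higher at P60 without overlap, and Hdac4, Hdac5, Hdac6 and Hdac9 are lower without overlap.

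Hdac11 in oligodendrocytes showed the largest rise that held with either set of cells. The P21 libraries were at 92.9, 69.7 and 74.3 CPM and the P60 saline libraries at 160.9 to 263.7 CPM (median 220.2), far apart. The log2 difference was 1.32 ± 0.20 (adjusted p = 0.00023), 2.50-fold, and it was 1.25 ± 0.20 (adjusted p = 0.00024) with the cells whose class and cluster agree. Leaving out any 1 library kept it between 1.26 and 1.49. Dissociation-induced genes summed to 2521 to 2966 CPM at P21 and 1704 to 4301 CPM at P60 in this class. Other lists moved with Hdac11 there. The 5 mature oligodendrocyte markers, all detected, summed to 79801 to 114024 CPM at P21 and 50650 to 65453 CPM at P60, the 4 OPC markers to 405 to 442 CPM and 146 to 381 CPM, and the 5 astrocyte markers to 83.1 to 130.1 CPM (Aldh1l1 at 0) and 218 to 456 CPM. Their part in the result was not tested.

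Hdac7 rose in endothelial cells, the class where it is most abundant. The P21 libraries were at 83.8, 58.0 and 65.8 CPM and the P60 saline libraries at 111.8 to 142.8 CPM, without overlap (log2 0.75 ± 0.13, adjusted p = 0.0019). With agreeing cells the P21 mean was 74.5 CPM and the difference 0.57 ± 0.14 (adjusted p = 0.010), which is 1.48-fold and below the fold threshold. In this class the 5 markers of pericytes and vascular smooth muscle, all detected, summed to 4138 to 5464 CPM at P21 and 6044 to 8561 CPM at P60, also without overlap. The mitochondrial share was 2.92 to 3.05% at P21 and 3.19 to 4.10% at P60. Their part in the result was not tested. Hdac8 in astrocytes went from 37.3 ± 2.96 to 76.8 ± 17.1 CPM (n = 3 and 5; 1.09 ± 0.28, adjusted p = 0.034) with all cells, a call lost in 6 of 9 single-library omissions (adjusted p up to 0.10) and in DESeq2 (adjusted p = 0.093). The saline library with 8 astrocytes was not in the fit, so its omission refitted the same data. With agreeing cells the P21 mean was 51.7 CPM and the difference 0.43 ± 0.30 (adjusted p = 0.69). With all cells the 5 mature oligodendrocyte markers in astrocytes summed to 5153 to 15167 CPM at P21 and 84.5 to 362 CPM at P60, and the dissociation-induced genes to 2086 to 6327 CPM and 563 to 1887 CPM, while the mitochondrial share was 4.03 to 5.02% and 2.87 to 3.49%. The 5 astrocyte markers there, all detected, summed to 10267 to 10871 CPM at P21 and 14001 to 23513 CPM at P60. Their part in the result was not tested.

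In the OPC class Hdac1 was higher at P60 (40.6 ± 1.15 against 120.3 ± 14.2 CPM; log2 1.51 ± 0.37, adjusted p = 0.012) and Hdac11 lower (107.3 ± 4.24 against 41.8 ± 13.5 CPM; -1.35 ± 0.39, adjusted p = 0.024). The P21 values came from 2 libraries with 11 Hdac1 and 29 Hdac11 UMIs, and 24 of their 43 cells sat in excitatory clusters. The excitatory class at P21 was at 27.4 CPM for Hdac1 and 95.4 CPM for Hdac11. In the OPC class the 4 OPC markers, all detected, summed to 593 to 690 CPM at P21 and 1453 to 2523 CPM at P60. The 5 astrocyte markers, all detected, summed to 258 to 317 CPM and 1002 to 1347 CPM. Dissociation-induced genes there summed to 2248 to 3477 CPM (Hspa1b and Atf3 at 0) and 5464 to 9828 CPM (Hspa1b at 0). Their part in the result was not tested. Neither OPC call held in DESeq2 (adjusted p = 0.069 for Hdac1 and 0.10 for Hdac11), and that of Hdac11 was also lost without the second saline library of the 48 h group (adjusted p = 0.057) and with no filter on low counts (adjusted p = 0.051). Too few agreeing OPCs were left at P21 for a fit. No member was called in newly formed oligodendrocytes (4 tested) or microglia (3 tested) in edgeR's quasi-likelihood fits, and none passed the adjusted p there. At an unadjusted p below 0.05 there was 1 in newly formed oligodendrocytes (Hdac2) and none in microglia. The share of all genes at that level is not given here.

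Over the 8 classes 52 member-by-class tests could be made, of which 7 rose and 1 fell, against 7.64% and 8.78% of all genes tested, and 16.4% called in either direction. By class that share was 14.1% in inhibitory neurons, 7.57% in astrocytes, 16.5% in oligodendrocytes, 5.98% in newly formed oligodendrocytes, 20.4% in OPCs, 42.4% in microglia and 13.4% in endothelial cells. With agreeing cells 4 calls of 45 tests were left, beside 11.6% of all genes tested with those cells (Hdac8 in both neuron classes, Hdac7 in excitatory neurons and Hdac11 in oligodendrocytes). By class the share with those cells was 18.0% in excitatory neurons, 14.2% in inhibitory neurons, 17.8% in oligodendrocytes and 12.4% in endothelial cells. It was 0.811% in astrocytes, 2.31% in newly formed oligodendrocytes and 0.726% in microglia. DESeq2 called 4 of 52. Without the second P21 library 3 were called, without the third 5, and without the second saline library of the 48 h group 5. Without the second P21 library the OPC class could not be fitted, so the OPC calls of Hdac1 and Hdac11 were not tested there.

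The 29 clusters fitted for age were all neuronal, 26 of them excitatory and the rest inhibitory. No glial or endothelial cluster was fitted. Within these clusters, Hdac2 was the member that fell most often. It was called lower at P60 in 9 of 28 clusters, of which 26 were excitatory. The 9 were all excitatory (Exc_9, Exc_12, Exc_14, Exc_16, Exc_17, Exc_22, Exc_23, Exc_24 and Exc_25). The median log2 difference of Hdac2 over the 28 was -0.58, with 27 below 0. The clusters were cut from the same libraries, so these differences are not independent of each other. Over all genes and clusters 6.37% of tests were called lower and 4.25% higher. The steepest fall was in Exc_17, from 70.6 ± 4.25 CPM (n = 3) to 30.5 ± 15.1 CPM (n = 5; log2 -1.11 ± 0.29, adjusted p = 0.0087). In Exc_14 the level went from 72.1 ± 11.2 to 37.8 ± 7.71 CPM (-0.83 ± 0.18, adjusted p = 0.0018) and in Exc_12 from 96.3 ± 9.18 to 59.6 ± 6.21 CPM (-0.63 ± 0.17, adjusted p = 0.011). In each of these 3 clusters all P60 saline libraries were below all P21 libraries.

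Hdac4 was called lower in 3 of 26 clusters. In Exc_1 it went from 45.1 ± 7.51 to 15.6 ± 6.46 CPM (log2 -1.49 ± 0.39, adjusted p = 0.0082), in Exc_15 from 40.2 ± 8.19 to 16.7 ± 5.74 CPM (-1.27 ± 0.30, adjusted p = 0.010) and in Exc_25 from 44.8 ± 7.83 to 25.0 ± 5.33 CPM (-0.68 ± 0.19, adjusted p = 0.0067). Hdac5 was called in Exc_14 alone of 17 clusters (39.5 ± 2.24 to 12.9 ± 7.0 CPM; -1.26 ± 0.26, adjusted p = 0.0010). Hdac9 was called in Exc_25 of 19 (-0.60 ± 0.20, adjusted p = 0.020), and in none without the third P21 library or any of 3 single saline libraries. Hdac4 was called in 1 of 25 without the first P21 library.

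Hdac8 could be tested in 4 excitatory clusters and rose in 3, Exc_19 (1.02 ± 0.34, adjusted p = 0.034), Exc_21 (1.02 ± 0.33, adjusted p = 0.032) and Exc_25 (1.15 ± 0.34, adjusted p = 0.012), with overlapping ranges in each. Without the second or the third P21 library it was called in 0 of 8 clusters in edgeR's quasi-likelihood test, without the first saline library of the 15-day group in 1 of 3, and DESeq2 called 1 of 4. Hdac1 rose in 2 of 25, from 24.1 ± 9.53 to 44.5 ± 7.07 CPM in Exc_21 (0.84 ± 0.26, adjusted p = 0.023) and by 0.64 ± 0.22 in Exc_25 (adjusted p = 0.031), and Hdac7 in Exc_25 (0.82 ± 0.30, adjusted p = 0.038). DESeq2 called neither gene in any cluster, Hdac1 was called in 0 of 24 without the third P21 library in edgeR's quasi-likelihood test and in 1 without the second or without the first saline library of the 15-day group, and Hdac7 in 0 without any of 6 single libraries, the second P21 library and the third among them. Exc_25, with all 10 members tested, held 6 of the 20 calls, in a cluster where 20.5% of all genes tested were called. Hdac3 in 28 neuronal clusters, Hdac6 in 16 and Hdac11 in 29 had no call in edgeR's quasi-likelihood test or in DESeq2. Oligodendrocytes, the class where Hdac11 rose, had no cluster among these fits. At an unadjusted p below 0.05 Hdac3 had 0, Hdac6 2 and Hdac11 3 of these tests, counts given without the share of all genes at that level.

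These 20 calls of 196 tests (6 rose and 14 fell) stand beside 10.6% of all genes called. DESeq2 called 9 of 196, of which 4 were falls of Hdac2. The count was 9 without the second P21 library, 10 without the third and 12 without the first saline library of the 15-day group, and Hdac2 fell in 4, 5 and 6 clusters in these.

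**Figure D4:**
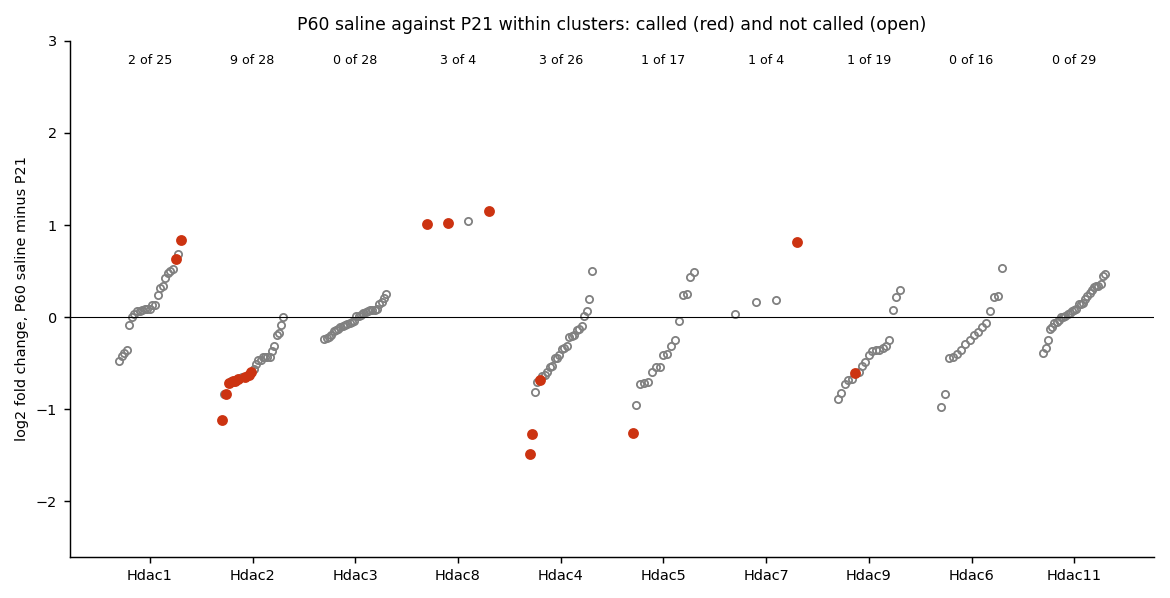
Log2 fold change of P60 saline against P21 (y axis) for each member (x axis) in every neuronal cluster where it was tested. Red points were called, open points were not, and the counts above give calls of tests. Hdac2 lies below 0 in 27 of 28 clusters, and Hdac3 keeps close to 0. Clusters share the same libraries, so the points of a member are not independent.

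The partners of the family were followed as fixed lists in the same excitatory fit, in which 8.01% of all genes rose and 10.1% fell. Of 12 NuRD subunits, the chromatin remodelling complex built on Hdac1 and Hdac2, 1 rose and 2 fell. Chd3, a remodelling ATPase listed there beside Chd4 and Chd5, fell from 137.4 ± 10.2 to 72.0 ± 8.16 CPM (log2 -0.89 ± 0.09, adjusted p = 2.28e-05). Mbd3 fell by 0.72 ± 0.18 on the log2 scale (adjusted p = 0.0093), while Mta3 rose (0.85 ± 0.21, adjusted p = 0.0063). Chd4 and Chd5 were tested and not called in edgeR's quasi-likelihood test. Of 7 CoREST subunits tested, Rcor2 fell (5.90 ± 1.97 to 3.05 ± 0.509 CPM; -0.92 ± 0.21, adjusted p = 0.0038). None of 13 Sin3, 5 NCoR and SMRT or 3 MiDAC subunits was called in edgeR's quasi-likelihood test in these neurons, with 4, 1 and 1 at an unadjusted p below 0.05. Of all genes in that fit, 38.8% passed even the adjusted p without the fold. Outside excitatory neurons, Arid4a of Sin3 rose in endothelial cells (0.85 ± 0.14, adjusted p = 0.0012), Brms1l in inhibitory neurons (0.70 ± 0.18, adjusted p = 0.011), and Sin3b in microglia (0.68 ± 0.18, adjusted p = 0.011). C130039O16Rik, listed with MiDAC, rose in endothelial cells (1.27 ± 0.34, adjusted p = 0.019). Of NuRD, Chd3 also fell in microglia (-1.51 ± 0.30, adjusted p = 0.0029) and in the OPC class (-2.10 ± 0.48, adjusted p = 0.0091), Mbd3 fell in astrocytes (-1.34 ± 0.36, adjusted p = 0.038) and Rbbp7 rose in oligodendrocytes (0.95 ± 0.24, adjusted p = 0.012). In microglia another 1 of the 4 NuRD subunits tested rose. These stand beside the shares of all genes called in each class given above. In the P21 microglia class 147 of 329 cells had a cluster of another type. The 5 microglia markers, all detected, summed to 5318 to 12023 CPM there and 23647 to 37168 CPM at P60, the excitatory neuron markers to 2020 to 2680 CPM and 125 to 1603 CPM, and the mature oligodendrocyte markers to 2841 to 6147 CPM and 89.1 to 359 CPM. In the OPC class Chd3 was at 151.7 CPM at P21, beside 137.4 CPM in P21 excitatory neurons. Their part in the microglia and OPC results was not tested. In the P21 astrocyte class 99 of 405 cells had a cluster of another type. The mature oligodendrocyte markers and dissociation-induced genes in astrocytes were lower at P60, as given above. Their part in the Mbd3 result was not tested.

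Of 10 histone acetyltransferases, the opposing enzymes, Hat1 rose in excitatory neurons (27.8 ± 0.610 to 44.9 ± 3.94 CPM; log2 0.74 ± 0.10, adjusted p = 0.00011) and in inhibitory neurons (0.96 ± 0.20, adjusted p = 0.0031). Of 7 sirtuins, the NAD-dependent deacetylases, Sirt7 fell in excitatory neurons (-0.76 ± 0.17, adjusted p = 0.0046). In edgeR's quasi-likelihood test it also fell in oligodendrocytes (-0.77 ± 0.23, adjusted p = 0.026) and newly formed oligodendrocytes (-1.08 ± 0.29, adjusted p = 0.028). Sirt3 fell in inhibitory neurons (-0.85 ± 0.17, adjusted p = 0.0018), and Sirt2, a myelin-rich tubulin deacetylase, fell in oligodendrocytes from 2843 ± 607 to 1728 ± 274 CPM (-0.80 ± 0.16, adjusted p = 0.0023). The mature oligodendrocyte markers in that class summed to 79801 to 114024 CPM at P21 and 50650 to 65453 CPM at P60. Their part in the result was not tested. Sirt2 fell in astrocytes too (-0.85 ± 0.22, adjusted p = 0.032), where the sum of mature oligodendrocyte markers was lower at P60 as given above and their part in the result was not tested, and rose in the OPC class, from 399.8 ± 38.8 to 1004 ± 277 CPM (1.28 ± 0.32, adjusted p = 0.012), where most P21 cells sat in excitatory clusters. Among 15 MEF2 factors and class IIa kinases tested, 2 fell in excitatory neurons. Camk1, a calcium-dependent kinase of class IIa proteins, went from 206.4 ± 45.1 to 107.2 ± 35.7 CPM (-0.90 ± 0.25, adjusted p = 0.019), and Sik1 from 1.45 ± 0.719 to 0.326 ± 0.0851 CPM (-1.95 ± 0.35, adjusted p = 0.0010). Camk1 also fell in inhibitory neurons (-1.11 ± 0.18, adjusted p = 0.00047). In the same test it fell in endothelial cells (-0.73 ± 0.17, adjusted p = 0.0093) and oligodendrocytes (-1.10 ± 0.28, adjusted p = 0.011). Camk1 (-1.33 ± 0.35, adjusted p = 0.023) and Mef2c (-1.96 ± 0.37, adjusted p = 0.0067) fell in newly formed oligodendrocytes. There the excitatory neuron markers summed to 552 to 964 CPM at P21 and 79.9 to 318 CPM at P60, and their part was not tested. Mef2a rose in microglia (0.93 ± 0.28, adjusted p = 0.019), where the marker sums given above moved too and their part was not tested. Of 10 genes of this list tested there, 1 rose and 2 fell (median log2 -0.32), beside 23.0% and 19.4% of all genes. In newly formed oligodendrocytes 3 of 8 fell, beside 4.10% of all genes, and in the OPC class 1 of 10, beside 10.7%. The medians in excitatory neurons ran from -0.30 for CoREST to 0.16 for the acetyltransferases.

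The comparison of cocaine with saline asked whether self-administration and withdrawal moved the genes. No member was called in any class at any time point, in 56 tests for each of the 3 time points, for all time points together or for each of the 3 differences between time points. Of all genes, 0.00496% were called at maintenance, 0.00661% at 48 h, 0.327% at 15 days and 0.00827% over all time points, with 0% and 0% for 48 h and 15 days against maintenance and 0.00827% for 15 days against 48 h. At an unadjusted p below 0.05 there were 1, 2 and 2 member tests at the 3 time points and 1 over all of them, against 4.44%, 4.51%, 5.36% and 5.71% of all gene tests, and the lowest adjusted p was 0.63. DESeq2 called 0 as well, with 2 of 392 tests below an unadjusted 0.05, against 8 in edgeR's quasi-likelihood test.

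In excitatory neurons, which carry the most counts, the estimates over all time points lay between -0.16 ± 0.10 for Hdac9 and 0.16 ± 0.08 for Hdac4 on the log2 scale. Hdac4 had the lowest p of them (adjusted p = 0.63). At maintenance its cocaine libraries were at 29.0 and 29.3 CPM and its saline libraries at 27.5 and 20.4 CPM, without overlap (0.29 ± 0.15). At 48 h they were at 23.4 and 27.8 CPM against 21.2 and 23.8 CPM, and at 15 days at 23.8 and 25.3 CPM against 26.7 and 23.0 CPM, both overlapping.

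**Figure D5:**
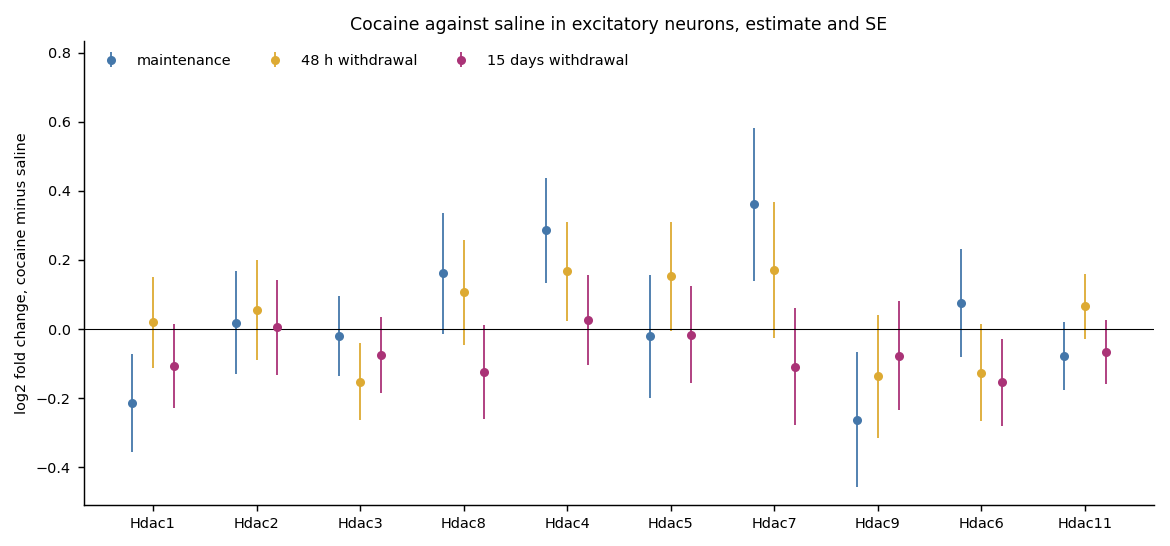
Log2 fold change of cocaine against saline (y axis, estimate and SE) in excitatory neurons for each member (x axis) at 3 time points. Most estimates lie within about their SE of 0, none was called, and Hdac4 at maintenance (0.29 ± 0.15) lies farthest from 0 for its SE.

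Of the 6 member tests in classes with an unadjusted p below 0.05 at a time point or over all of them, 4 were in microglia, a class with 6 to 22 Hdac3 UMIs per library. Hdac3 there was at 18.9 and 22.8 CPM in the cocaine libraries and 42.6 and 44.5 CPM in the saline libraries at maintenance (log2 -1.03 ± 0.42), and over all time points the difference was -0.60 ± 0.24 (adjusted p = 1.00 in edgeR's quasi-likelihood test for both). Hdac1 in microglia was lower with cocaine at 48 h (-0.75 ± 0.33) and higher at 15 days (0.80 ± 0.38), and the difference between these time points was 1.55 ± 0.50 (adjusted p = 1.00). Hdac11 in inhibitory neurons at 48 h was at 134.9 and 140.5 CPM against 183.7 and 209.8 CPM (-0.50 ± 0.19, adjusted p = 0.86). The sixth was Hdac3 in newly formed oligodendrocytes at 15 days (0.83 ± 0.40, adjusted p = 1.00).

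Within the 18 clusters that could be fitted, no member was called either, in 118 tests for each contrast. All genes gave 0.00354% called at maintenance, 0.0053% at 48 h, 1.2% at 15 days and 0.0345% over all time points, and 0.00265%, 0.0336% and 0.00619% for the same differences between time points. At an unadjusted p below 0.05 there were 4 member tests at each time point and 6 over all of them, against 5.33%, 4.90%, 6.59% and 6.87% of all gene tests. DESeq2 called 0, with 5 of 826 tests over all contrasts at that level. The lowest adjusted p was 0.25, for Hdac1 in Exc_10 over all time points, at 24.1 CPM with cocaine and 45.6 CPM with saline (log2 -0.71 ± 0.23). Hdac5 in Exc_23 at 15 days was at 17.5 CPM with cocaine and 31.8 CPM with saline (-0.87 ± 0.31, adjusted p = 0.29). The median SE of a member test was 0.41 at maintenance, 0.35 at 48 h and 0.29 at 15 days in classes on the log2 scale. With 2 libraries per treatment and time point, a p that misses the threshold does not show that the groups were alike.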

How the data were processed

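Single-cell 3′ libraries were made on the 10x Chromium platform. Per the labels, Cell Ranger (printed there as version 13.1), Seurat 2.1.0 and the mm9 build were used by the authors. The deposited matrices hold UMI counts, not normalized, and the deposited annotation gives each retained cell a class and a cluster. Cells without an annotation were not used, and likely doublets had been removed by the authors (at P60, by the number of genes detected). Counts were summed per library and class or cluster, leaving out 13 mitochondrial and 143 ribosomal protein genes, for libraries with at least 10 cells. CPM is UMIs per 1000000 UMIs of such a sum. The mitochondrial share is a fraction per cell as deposited by the authors. The sums were tested with edgeR 4.0.16 (R 4.3.3; filterByExpr, TMM, robust quasi-likelihood fit) and p-values adjusted over all genes of a fit (Benjamini-Hochberg), which measure the spread between libraries. Calls needed an adjusted p below 0.05 and above 1.5-fold. DESeq2 1.42.0 was an alternative. Library depth is given in the report. Cell barcodes shared by pairs of libraries numbered at most 40 (1.00% of the smaller library). Scripts were tested on simulated data. The members and lists were chosen with earlier results of these data known. All members are named. Of each pathway list (NuRD, Sin3, CoREST, NCoR and SMRT, MiDAC, acetyltransferases, sirtuins, MEF2 and kinases) at most 4 called members with the lowest adjusted p were eligible. Of each member, the 3 genes of highest correlation were named, except 1 that is not reported here.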

Additional observations from a re-analysis of the deposited data

Results flagged for a closer look

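Of 52 groups of saline P60 libraries examined, 7 held a library whose gap to the others passed Dixon's 95% value, where chance flags about 1 in 20 groups. In inhibitory neurons Hdac3 was at 59.4 CPM in the first saline maintenance library (nearest 110.7 CPM), and Hdac6 was at 61.8 CPM in the second (nearest 29.7 CPM). In astrocytes Hdac8 was at 107.0 CPM in the first saline 48 h library (nearest 73.2 CPM), while the second was at 0 CPM for Hdac5 (nearest 20.6 CPM) and at 5.63 CPM for Hdac4 (nearest 37.8 CPM). Hdac3 in microglia was at 69.1 CPM in the first saline library of the 15-day group (nearest 50.1 CPM), and Hdac2 in endothelial cells was at 19.2 CPM in the second saline 48 h library (nearest 33.2 CPM).

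Hdac11 differed between P60 saline and P21 by 1.32 on the log2 scale in oligodendrocytes and by -1.35 in OPCs, with every P60 saline library of at least 10 cells above the P21 libraries in the former and below them in the latter. The difference between the classes was not tested, and the P21 OPC class held 29 of 51 cells from excitatory clusters.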

How the results depend on the processing

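No paired analysis was possible because replicate numbers were given in accession order and pair no samples. Of 52 member-by-class tests of age, 8 were called, against 4 with DESeq2, 4 with the cells whose class and cluster agree (an alternative chosen after seeing the data, as was testing the gene models of Hdac4 apart), 13 with no fold cutoff, and 3 to 9 when each library was left out in turn. Without the first or the second P21 library the OPC class could not be fitted, so its calls were not tested there. Of 196 tests in neuronal clusters 20 were called, against 9 with DESeq2 and 9 to 21 when each library was left out. A minimum of 30 cells, all 12 P60 libraries, dropping the expression filter, scaling by the size factors of DESeq2 and, for classes, keeping mitochondrial and ribosomal protein genes moved neither count by more than 1.5 times. The cause of these shifts was not tested. For the member-by-class differences given in the report no alternative turned a direction, 28 values over all alternatives fell back over the threshold and 5 passed it. Cocaine gave 0 calls under every alternative. Only 4 members each in oligodendrocytes, newly formed oligodendrocytes and OPCs had counts enough for a test of age, and 3 in microglia. Depth limits what can be seen in these classes. Tests after leaving out 1 of 2 libraries of a group assume that the lone library varies like the others.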
